A study of Homo sapiens with 16 samples.

Results

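Utrophin (UTRN) and 8 other giant linker proteins of the cytoskeleton were followed across 16 RNA-seq libraries of MCF10A, a non-tumorigenic human breast epithelial cell line. The 9 genes, of 26475 rows in the count table, were UTRN, MACF1, SPTAN1, SPTBN1, FLNA, TLN1, VCL, AHNAK and DSP. They were chosen by name, starting from UTRN because its counts were higher with both inhibitors than with collagen alone, so the 2 comparisons of an inhibitor with collagen are given as a description and without a test. The data came from a study of DDR1, a receptor tyrosine kinase that binds collagen, and of the transcription factor RUNX1 with its partner CBFB. There were 4 groups of 4 libraries. The control received DMSO and changes of normal medium and no collagen. The collagen group received DMSO and then type I collagen at 0.05 mg/mL for 24 h. The DDR1i group received the DDR1 inhibitor DDR1-IN-1 at 2 µM, and the RUNXi group the RUNX inhibitor AI-10-104 at 5 µM, each for 48 h in all, with the same collagen over the last 24 h. All groups are 1 cell line, and no group received an inhibitor without collagen, so the effect of an inhibitor on its own could not be separated from its effect under collagen. The sources used here do not say whether the replicates were separate cultures, so the tests measure the spread between these libraries, which may be technical.

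Linker proteins tie the cytoskeleton to the membrane, to junctions and to other filaments. Utrophin, the widely expressed relative of dystrophin, joins actin to the dystroglycan complex at the membrane. MACF1 is a spectraplakin that crosslinks actin and microtubules, and SPTAN1 and SPTBN1 are the alpha and beta chains of non-erythroid spectrin, which form a mesh under the membrane. FLNA (filamin A) crosslinks actin and binds integrin tails. TLN1 (talin 1) activates integrins, and VCL (vinculin) reinforces the talin link to actin under load. DSP (desmoplakin) anchors keratin filaments to desmosomes, the junctions that hold epithelial sheets together. AHNAK is a very large scaffold that associates with annexin A2 and S100A10 below the membrane.

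The libraries held 12184619 to 44332378 counts. All 6 basal markers measured (KRT5, KRT14, KRT17, TP63, EGFR and LAMB3) were present, with a summed level of 10690 to 20758 CPM per library (CPM are counts scaled to a common library size). The summed level was 462 to 729 CPM for 5 luminal markers, 8.53 to 28.7 for 3 leukocyte markers and 7.54 to 20.2 for 5 smooth and skeletal muscle markers. It was 0 to 6.35 for 5 fibroblast markers and 0 to 2.40 for 3 endothelial markers. A mean above 1 CPM was reached by 3 luminal markers (KRT8, KRT18 and EPCAM), but not by KRT19 or ESR1. It was also reached by 2 muscle markers, 1 fibroblast marker and no endothelial marker. CD68 was the 1 leukocyte marker to reach it, and PTPRC and CD3E were near 0, so that sum was nearly all CD68. COL3A1, MYH7 and CDH5 had no count in any library. Collagen replicate 3 was left out of the fits, as the study's methods do. Its values are given beside the others, because it changed the results described here.

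UTRN lies on chromosome 6 (GRCh37, chr6:144606471-145174170, plus strand). Its gene spans 568 kb, and its canonical transcript of 12918 bases is spliced from 75 exons. MACF1 had the longest transcript of the 9 genes, at 24340 bases, followed by AHNAK at 18761, UTRN, SPTBN1 at 10211, DSP at 9697, TLN1 at 8623, FLNA at 8507, SPTAN1 at 7875 and VCL at 5497 bases. The median over the genes with enough counts was 3257 bases. Transcript length bears on every result below, because the levels of long transcripts as a class differed between libraries.

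The sequence before the start sites was read because one inhibitor acts on RUNX proteins, which bind a short core motif. RefSeq windows of 250 bases before a start (GRCh38.p14) were found for all 9 genes, 13 windows in all. They were searched on both strands for TGTGGT and TGCGGT, and 1 of the 13 held a match, compared with 16.31% of 35116 windows over all genes. The match lay 214 bases before the second of the 3 MACF1 starts. No match says only that these letters are not in the window. The first UTRN window, the gene the others were grouped around (chr6:144285085-144285334, plus strand), and the MACF1 window with its match in capitals (chr1:39204445-39204694, plus strand) read:
UTRN: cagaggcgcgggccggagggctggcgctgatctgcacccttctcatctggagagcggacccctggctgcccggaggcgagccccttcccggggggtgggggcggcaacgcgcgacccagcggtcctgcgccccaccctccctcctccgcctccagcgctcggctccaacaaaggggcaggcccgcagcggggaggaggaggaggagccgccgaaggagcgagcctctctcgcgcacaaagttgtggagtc
MACF1: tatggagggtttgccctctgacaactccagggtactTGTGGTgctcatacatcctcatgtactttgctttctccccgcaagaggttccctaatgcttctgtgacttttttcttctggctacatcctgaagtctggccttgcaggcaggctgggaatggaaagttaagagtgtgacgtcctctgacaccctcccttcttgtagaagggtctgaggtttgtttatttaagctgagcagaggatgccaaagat
The UTRN window had 73.2% G and C and the MACF1 window 48.4%, against a median of 70.8% over the 13 windows and 58% over all windows.

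UTRN had the lowest level of the 9 genes for its length. Per kilobase of transcript its mean over the 16 libraries was 2.01 normalized CPM, followed by MACF1 at 4.65, SPTBN1 at 23.1, SPTAN1 at 28.6, VCL at 38.2, TLN1 at 44.04, AHNAK at 57.6, DSP at 67.1 and FLNA at 162. UTRN therefore rested on the fewest reads, with 193 counts in control replicate 2 and 1510 in control replicate 1 at the extremes.

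UTRN was low in collagen replicates 1, 2 and 4 and lay within one range in most other libraries. In control replicates 1 to 4 it measured 33.4, 15.4, 39.3 and 30.8 normalized CPM. In collagen replicates 1, 2 and 4 it measured 10.9, 13.6 and 8.14 normalized CPM, and in collagen replicate 3, left out of the fits, 32.3. With DDR1i the 4 libraries held 23.5, 37.2, 31.9 and 29.7 normalized CPM, and with RUNXi 23.9, 32.7, 28.4 and 24.5. The 3 collagen libraries were the 3 lowest of the 16, control replicate 2 came next, and collagen replicate 3 stood above all RUNXi libraries except replicate 2. The mean was 30.6 ± 5.69 normalized CPM (SD, n = 4) with DDR1i, 29.7 ± 10.2 in the control (SD, n = 4), 27.4 ± 4.06 with RUNXi (SD, n = 4) and 10.9 ± 2.75 with collagen (SD, n = 3). The first 3 of these means lay within 1 SD of each other. In bulk RNA, fewer cells with a transcript and less of it per cell cannot be told apart.

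**Figure D1:**
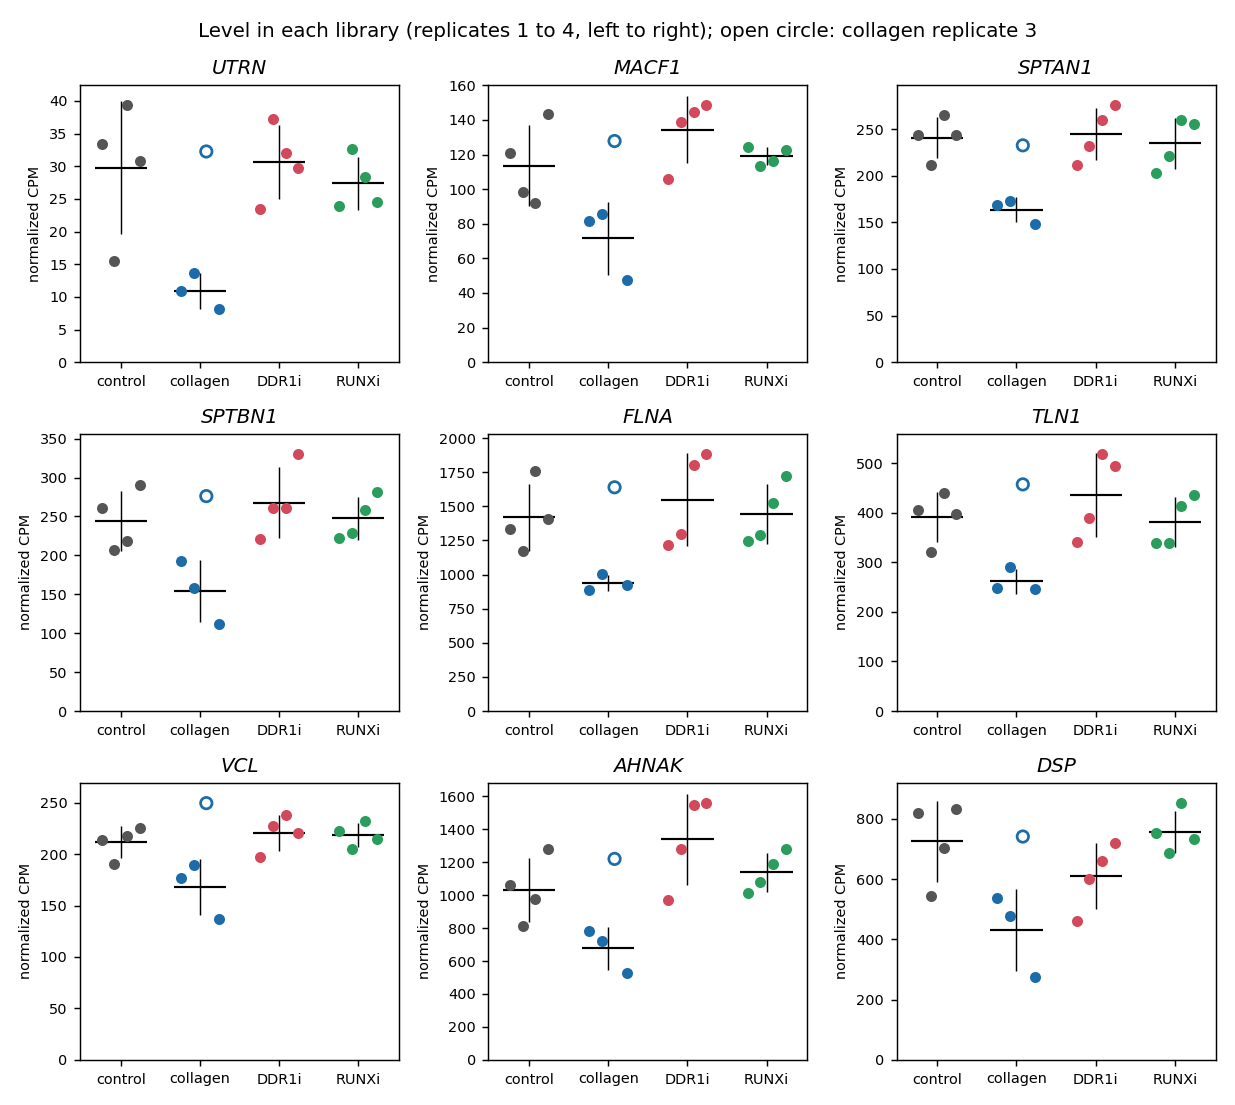
Normalized CPM (vertical axes, from 0) of the 9 linker genes in each library, by group, with replicates 1 to 4 from left to right. Bars show the mean and SD without collagen replicate 3, which is drawn as an open circle. Collagen replicates 1, 2 and 4 were the 3 lowest libraries for 8 of the 9 genes, and collagen replicate 3 lay above them for all 9.

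The crosslinkers of the cell cortex also had collagen replicates 1, 2 and 4 as their 3 lowest libraries. In the control MACF1 measured 121, 98.1, 91.9 and 143 normalized CPM (replicates 1 to 4). Collagen replicates 1, 2 and 4 held 81.3, 85.7 and 47.5 normalized CPM of it. It measured 106, 139, 145 and 148 normalized CPM with DDR1i, 124, 113, 116 and 122 with RUNXi, and 128 in collagen replicate 3. Each DDR1i and RUNXi library therefore lay above collagen replicates 1, 2 and 4, and collagen replicate 3 lay within the DDR1i range. SPTAN1 ranged from 148 to 173 normalized CPM in collagen replicates 1, 2 and 4, from 212 to 275 with DDR1i and from 203 to 259 with RUNXi. SPTBN1 ranged from 112 to 192 normalized CPM in the same 3 collagen libraries, from 221 to 330 with DDR1i and from 222 to 282 with RUNXi. The 2 spectrin chains thus did not overlap between these collagen libraries and either inhibitor group. In the control, SPTAN1 spanned 212 to 265 and SPTBN1 206 to 290 normalized CPM.

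The integrin-linked adapters differed in size of change. FLNA, the highest of the 9 per kilobase, measured 887, 1004 and 927 normalized CPM in collagen replicates 1, 2 and 4 and 1640 in replicate 3. It measured 1213, 1299, 1805 and 1882 normalized CPM with DDR1i, and 1245, 1291, 1527 and 1719 with RUNXi. FLNA was the only gene of the 9 whose lowest library was collagen replicate 1 rather than replicate 4. TLN1 ranged from 245 to 291 normalized CPM in collagen replicates 1, 2 and 4, from 341 to 518 with DDR1i and from 338 to 436 with RUNXi. VCL had the narrowest range of the 9, with 1.82-fold between its lowest and highest library against 4.83-fold for UTRN. VCL measured 137 to 190 normalized CPM in the same 3 collagen libraries and 197 to 238 with DDR1i, and its highest library was collagen replicate 3 at 249.

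AHNAK measured 780, 723 and 529 normalized CPM in collagen replicates 1, 2 and 4, and 1220 in replicate 3. With DDR1i it measured 972, 1279, 1544 and 1558 normalized CPM, and with RUNXi 1011, 1079, 1186 and 1278. The highest AHNAK libraries were DDR1i replicates 3 and 4, above all control libraries, which ranged from 813 to 1279. DSP was the gene whose groups overlapped. It measured 538, 479 and 277 normalized CPM in collagen replicates 1, 2 and 4, and 462, 602, 661 and 720 with DDR1i, so that DDR1i replicate 1 fell below 2 collagen libraries. With RUNXi it measured 753, 686, 853 and 734 normalized CPM, all above those collagen libraries.

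All 9 genes were higher in both inhibitor groups than in collagen replicates 1, 2 and 4. Against collagen, DDR1i gave a log2 fold change of 1.49 for UTRN (SE 0.21), a fold of 2.81. It was 0.98 for AHNAK (SE 0.15), 0.91 for MACF1 (SE 0.16), 0.80 for SPTBN1 (SE 0.16), 0.73 for TLN1 (SE 0.14) and 0.72 for FLNA (SE 0.15). For SPTAN1 it was 0.58 (SE 0.12), for DSP 0.50 (SE 0.18) and for VCL 0.39 (SE 0.12). UTRN had the largest difference and VCL the smallest. At an edgeR adjusted p under 0.05, the threshold used throughout, 7 of the 9 genes would be called higher, all except VCL and DSP, beside 1.69% of the 13548 genes tested. None of the 9 would be called lower, beside 0.775%. The median log2 fold change was 0.73 over the 9 genes and 0.0037 over all genes. The ranges did not overlap for 8 of the 9 genes, beside 8.44% of all genes. These counts are fixed in part by how the genes were chosen.

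RUNXi gave a similar order. Its log2 fold change against collagen was 1.32 for UTRN (SE 0.21), a fold of 2.50, and 0.80 for DSP (SE 0.19), 0.74 for AHNAK (SE 0.15) and 0.73 for MACF1 (SE 0.16). It was 0.68 for SPTBN1 (SE 0.16), 0.62 for FLNA (SE 0.15), 0.54 for TLN1 (SE 0.14), 0.52 for SPTAN1 (SE 0.12) and 0.37 for VCL (SE 0.12). UTRN again led and VCL was again last, while DSP, next to last with DDR1i, came directly after UTRN. By the same threshold 8 of the 9 genes would be called higher, all except VCL, beside 2.59% of all genes, and none lower, beside 1.46%. The ranges did not overlap for any of the 9 genes, beside 9.46% of all genes. The 2 comparisons share their collagen libraries, so they do not support each other.

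These counts rested on which collagen libraries were used. With collagen replicate 3 included, none of the 9 genes would be called in either comparison, and the log2 fold change of UTRN was 0.91 with DDR1i and 0.74 with RUNXi. The calls over all genes fell as well, from 334 with DDR1i and 549 with RUNXi to 9 and 60. Collagen replicate 3 lay within the control range for 7 of the 9 genes, above it for TLN1 and VCL, and within the DDR1i range for 7. Without collagen replicate 4 the counts were 5 with DDR1i and 2 with RUNXi, beside 87 and 123 over all genes. Without RUNXi replicate 3 the RUNXi count was 3, beside 190 over all genes, and without RUNXi replicate 4 it was 4, beside 224.

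**Figure D2:**
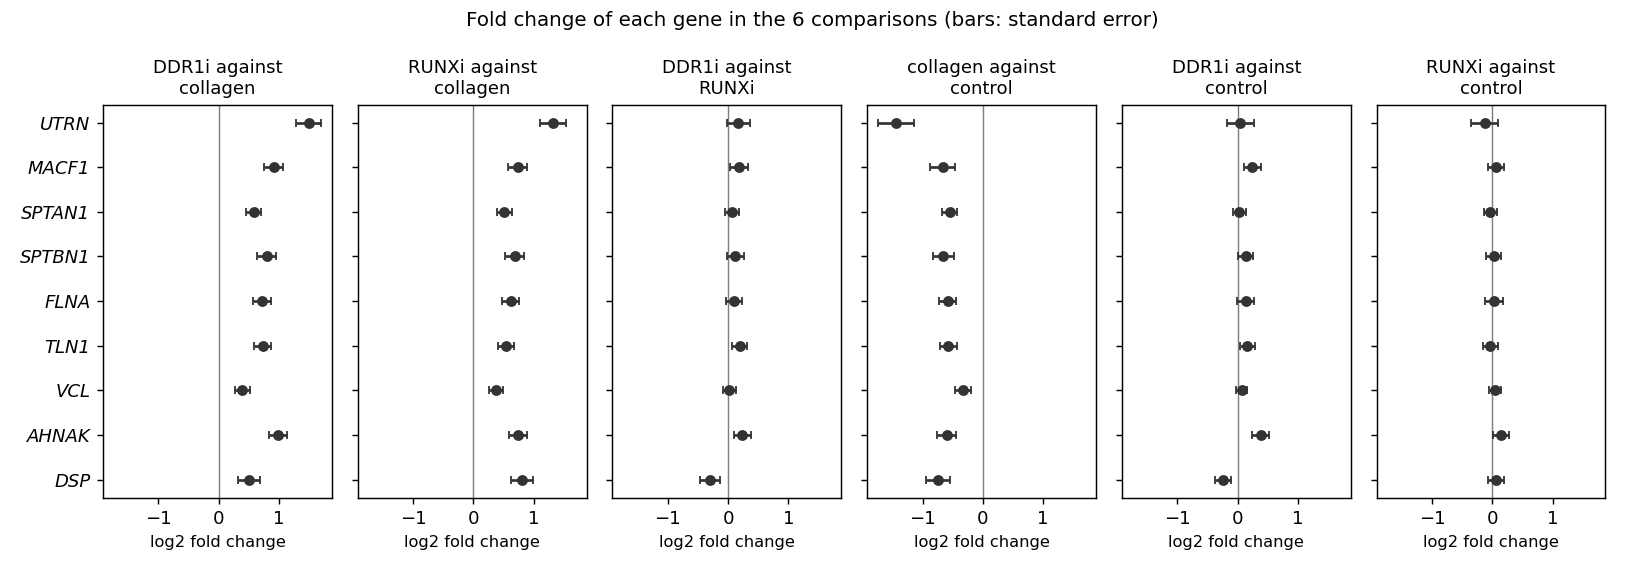
Log2 fold change (horizontal axes) of each linker gene in the 6 comparisons, with bars for the standard error of the edgeR fit. All 9 genes lie above 0 against collagen with either inhibitor and below 0 for collagen against the control, and from -0.30 to 0.38 in the 3 other panels.

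The 2 inhibitors were compared with each other at their single doses, 2 µM for DDR1i and 5 µM for RUNXi, over the same 48 h, so the values stand side by side at unlike doses. They share no library, although each was part of the choice of genes. No gene of the 9 passed the threshold (edgeR, adjusted p 0.908 to 0.999), beside 0.347% of 13548 genes called higher with DDR1i and 0.221% called lower. None had an unadjusted p under 0.05, and DESeq2 also called none of them. UTRN had a log2 fold change of 0.17 (SE 0.19), and the 95% interval of its fold ran from 0.858 to 1.47. The intervals were narrower for VCL, from 0.864 to 1.19, and SPTAN1, from 0.889 to 1.23. AHNAK leaned highest towards DDR1i, with a log2 fold change of 0.24 (SE 0.14) and an interval of the fold from 0.966 to 1.44. DSP was the only gene of the 9 with a lower estimate in DDR1i, at -0.30 (SE 0.17), and its interval ran from 0.635 to 1.04. Differences inside these intervals were not detectable with 4 libraries a group.

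Collagen replicates 1, 2 and 4 were set against the control, to ask what collagen did without an inhibitor. These collagen libraries were among those that chose the genes, so their low values are not independent of the choice. All 9 estimates were below 0. The log2 fold change was -1.44 for UTRN (SE 0.30), -0.74 for DSP (SE 0.20), -0.66 for both MACF1 (SE 0.21) and SPTBN1 (SE 0.18), and -0.60 for AHNAK (SE 0.16). It was -0.59 for FLNA (SE 0.14), -0.57 for TLN1 (SE 0.13), -0.55 for SPTAN1 (SE 0.13) and -0.33 for VCL (SE 0.14). In edgeR none of the 9 genes passed the threshold, with adjusted p from 0.107 for UTRN to 0.310 for VCL, and neither did any of the 13092 genes tested (0% higher and 0% lower). At an unadjusted p under 0.05 there were 1754 genes, the 9 among them. DESeq2 called 7 of the 9 lower among 415 genes, gave UTRN no adjusted p and left VCL uncalled. The edgeR fit without a filter on low counts and the edgeR fit over all 4 groups each called 8. The ranges did not overlap, with collagen lower, for 9 of the 9 genes, beside 7.17% of all genes. With collagen replicate 3 included, edgeR again called none of the 9.

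Against the control, neither inhibitor group with collagen differed in any of the 9 genes past the threshold. With DDR1i edgeR called none of the 9 (adjusted p 0.639 to 0.998), beside 0.151% of 13213 genes called higher and 0.0605% lower, and DESeq2 called none. UTRN had a log2 fold change of 0.04 (SE 0.22), with an interval of the fold from 0.750 to 1.42. AHNAK was the 1 gene of the 9 with an unadjusted p under 0.05 (edgeR, adjusted p = 0.639), at a log2 fold change of 0.38 (SE 0.14), where 5.13% of all genes had such a p. With RUNXi edgeR called none of the 9 (adjusted p 0.911 to 0.991), beside 0.242% called higher and 0.159% lower, none of the 9 had an unadjusted p under 0.05, and DESeq2 called none. UTRN had a log2 fold change of -0.12 (SE 0.22), with an interval of the fold from 0.668 to 1.26. The inhibitor libraries here are those that chose the genes, and the control libraries are not.

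Long transcripts as a class moved with these genes. In DDR1i against collagen, the median log2 fold change rose with each class of transcript length, from -0.24 in 913 genes under 1 kb through -0.18, -0.03 and 0.15 to 0.33 in 1111 genes of 8 kb and over. The medians for RUNXi against collagen were -0.27, -0.21, -0.04, 0.16 and 0.33. For collagen against the control they ran the other way, from 0.32 under 1 kb to -0.35 at 8 kb and over. Between DDR1i and RUNXi the 5 medians lay between -0.01 and 0.02. In the longest class 79.6% of genes had a positive log2 fold change with DDR1i against collagen and 9.63% were called higher, against 26.7% positive and 0.219% called higher under 1 kb. The longest class holds 7 of the 9 linker genes, and SPTAN1 and VCL fall in the class of 4 to 8 kb.

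The 9 linker genes lay above the length trend in both comparisons with collagen. In DDR1i against collagen a smooth curve of log2 fold change on length over 12985 genes stood at 0.38 at the length of UTRN, and UTRN exceeded it by 1.11. The excess over the curve was 0.54 for AHNAK, 0.46 for SPTBN1, 0.44 for MACF1, 0.43 for TLN1, 0.42 for FLNA, 0.30 for SPTAN1, 0.20 for VCL and 0.18 for DSP. UTRN was at the 97.7 percentile of the 1111 genes of 8 kb and over in that comparison and at the 96.8 percentile with RUNXi. UTRN was chosen for being higher in both comparisons, and the other genes with earlier results known. The excesses, percentiles and calls in this paragraph are therefore a description and not a test of a response beyond length. When the trend was removed from each library before the fit, 2 of the 9 genes, UTRN and AHNAK, would be called higher with DDR1i and 1, UTRN, with RUNXi. Over all genes, 162 with DDR1i and 204 with RUNXi were then called in either direction. The log2 fold change of UTRN was then 1.10 with DDR1i and 1.00 with RUNXi. With the trend removed and collagen replicate 3 included, which was tried after the data were seen, none would be called, and UTRN stood at 0.75 and 0.64. In that run 9 genes with DDR1i and 63 with RUNXi were called over all genes.

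**Figure D3:**
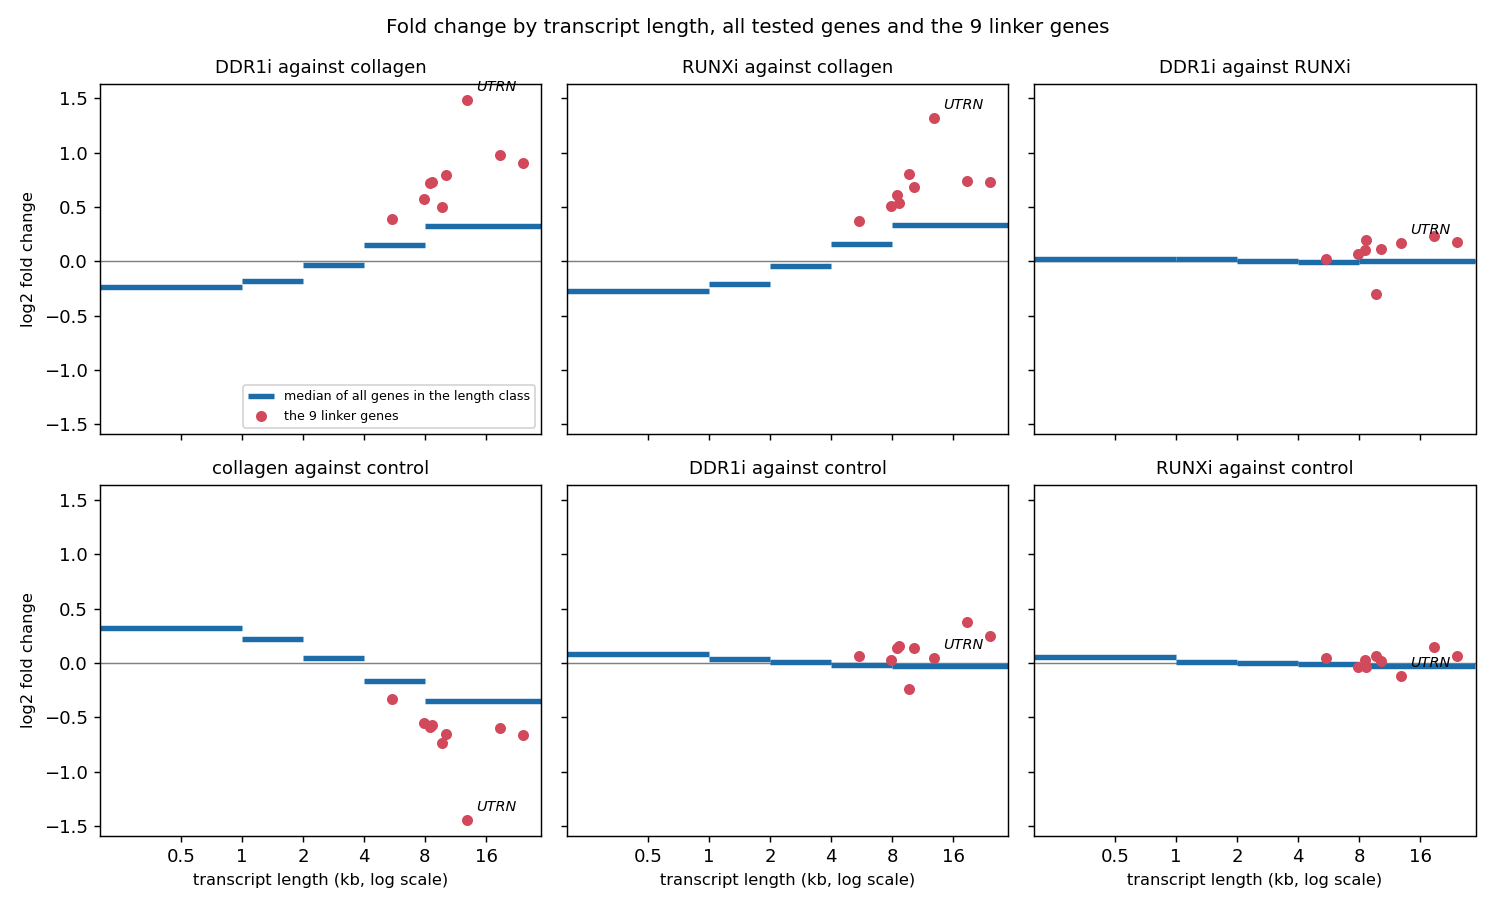
Log2 fold change (vertical axes) against transcript length in kb (horizontal axes, log scale) in the 6 comparisons. Blue bars are medians of all tested genes in a length class and red points the 9 linker genes; the medians climb from -0.24 to 0.33 for DDR1i against collagen, fall from 0.32 to -0.35 for collagen against the control, and stay between -0.01 and 0.02 for DDR1i against RUNXi.

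The length trend could be read in single libraries. The slope of log2 CPM, relative to the mean of the 16 libraries, on log2 length was -0.241 in collagen replicate 4, the lowest of all. It was -0.0777 in DDR1i replicate 1, -0.0675 in collagen replicate 2 and -0.0492 in collagen replicate 1, and it was above 0 in the other 12 libraries. Collagen replicate 3 had a slope of 0.0388, inside the control range of 0.0268 to 0.0847. The RUNXi slopes lay within 0.0141 to 0.0288. The library with the lowest slope, collagen replicate 4, was also the lowest for 8 of the 9 linker genes, and DDR1i replicate 1 was the lowest of its group for all 9. Several libraries did not follow this order. DDR1i replicate 1 had a lower slope than collagen replicates 1 and 2. Relative to its mean over the 16 libraries, UTRN stood at -0.02 log2 units there, against -1.13 and -0.80 in those collagen libraries. DDR1i replicate 4 had a slope of 0.0104, yet the mean of the 9 genes was highest in it, at 0.37. In control replicate 2 the slope was 0.0344, while UTRN was 0.63 log2 units below its mean over the 16 libraries. The part of RNA quality or library preparation in the length trend was not tested.

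**Figure D4:**
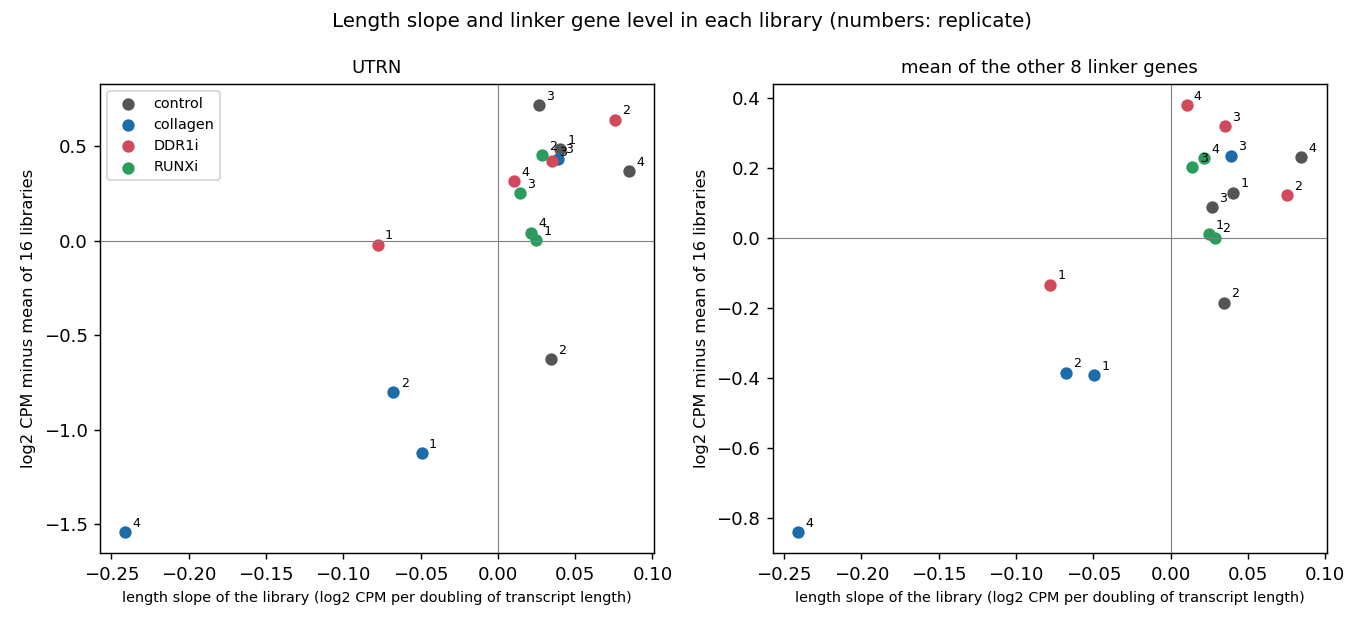
Level of UTRN (left) and the mean of the other 8 linker genes (right), as log2 CPM minus the mean of the 16 libraries, against the length slope of each library in log2 CPM per doubling of transcript length. Numbers are replicates; collagen 4 lies at a slope of -0.241 with UTRN at -1.54, and control 2 lies at 0.0344 with UTRN at -0.63.

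Other genes followed the level of UTRN across the libraries more closely than the linker genes did. Over the 16 libraries and 13517 genes, Pearson correlation of log2 CPM with UTRN was highest for SGK223 at 0.932, GTF2I at 0.916, ELMSAN1 at 0.916, RBM33 at 0.913 and DYNC1H1, the heavy chain of cytoplasmic dynein, at 0.911. Of the linker genes SPTAN1 was closest, at 0.887 and rank 16, followed by VCL at 0.879 and rank 27, and DSP was farthest, at 0.791 and rank 248. The points share the depth and the length slope of their libraries. Among the 100 genes most like UTRN, 55% had a transcript of 8 kb and over, against 8.55% of all genes, and their median length was 8325.5 bases. Within the 9, the closest pair was FLNA and TLN1 at 0.972, ahead of SPTBN1 and AHNAK at 0.946, and the most distant was FLNA and DSP at 0.683.

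A wider set of 75 linker genes in 7 lists was counted beside the 9. With DDR1i against collagen, 6 of the 66 tested would be called higher, among them PLEC, ACTN4, TNS4 and SUN1, and none lower, beside 1.69% higher and 0.775% lower of all genes and 9.63% higher of the genes of 8 kb and over. With RUNXi they numbered 6 as well (PLEC, ACTN4, TNS4, AHNAK2, SYNE2 and SUN1), again with none lower, beside 2.59% higher and 1.46% lower of all genes and 13.1% higher of the genes of 8 kb and over. The listed genes differ in length, such as SUN1 at 4010 and SYNE2 at 21822 bases, so no single class matches them. Of the genes of 4 to 8 kb, 2.62% were called higher with DDR1i and 4.10% with RUNXi. The median log2 fold change of the 66 was 0.25 with DDR1i and 0.22 with RUNXi, against 0.73 and 0.68 for the 9. The 9 were grouped around UTRN with earlier results known, so this gap is fixed in part by the choice and was not tested. PLEC encodes plectin, a plakin that links intermediate filaments to actin and to hemidesmosomes, and it had a log2 fold change of 1.16 (SE 0.23) with DDR1i and 0.88 (SE 0.22) with RUNXi. Some values had a large SE with DDR1i, such as MAP1A at 2.00 (SE 1.37), SPTBN5 at 0.81 (SE 1.63) and DTNA at 0.59 (SE 1.60), none of them called. SYNE3 at 1.07 (SE 0.38) and TLN2, a talin relative of TLN1, at 1.04 (SE 0.34) were not called either. None of the 66 differed between the inhibitors past the threshold (edgeR).

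The dystrophin complex, the membrane partners of utrophin, had smaller values than UTRN, a difference that was not tested. Of its 13 genes 8 were tested, and none would be called in either comparison with collagen. DMD, which encodes dystrophin and has a transcript of 13992 bases, had a log2 fold change of 0.30 (SE 0.25) with DDR1i and 0.68 (SE 0.25) with RUNXi. DAG1, which encodes dystroglycan, had one of 0.38 (SE 0.13) with RUNXi. The median of the 8 was 0.12 with DDR1i and 0.07 with RUNXi.

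Among desmosomal and plakin genes, partners of DSP, 14 of 14 were tested. Collagen against the control gave a negative log2 fold change for 13 of them, with a median of -0.49 and none past the threshold in edgeR. In that comparison 50.9% of all genes were positive. By length the share was 57.2% at 2 to 4 kb, 29.7% at 4 to 8 kb and 20.4% at 8 kb and over. DSG3, a desmosomal cadherin of stratified epithelium, was lower than in the control in both inhibitor groups, by edgeR. Its log2 fold change was -0.59 (SE 0.12, adjusted p = 0.0422) with DDR1i and -0.56 (SE 0.12, adjusted p = 0.0471) with RUNXi. Its level was 93.0 ± 11.6 normalized CPM in the control (SD, n = 4), 61.6 ± 3.91 with DDR1i (SD, n = 4), 63.3 ± 4.09 with RUNXi (SD, n = 4) and 62.8 ± 22.7 with collagen (SD, n = 3). PPL, which encodes periplakin, was lower with DDR1i than in the control (log2 fold change -1.57, SE 0.32, edgeR adjusted p = 0.0484). Its level was 28.9 ± 11.8 normalized CPM in the control and 9.62 ± 3.14 with DDR1i (SD, n = 4 each), and 19.0 ± 10.6 with collagen (SD, n = 3). DSG3 and PPL were close to the threshold and were not followed in the other fits. There the calls over all genes against the control ranged from 8 to 116 with DDR1i, against 28, and from 21 to 162 with RUNXi, against 53.

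The partners and relatives of AHNAK were 4 genes, all tested. ANXA2, which encodes annexin A2 and has a transcript of 1554 bases, was higher with DDR1i than in the control (log2 fold change 0.36, SE 0.08, edgeR adjusted p = 0.0484). ANXA2 was not followed in the other fits either. Its level was 2280.5 ± 147 normalized CPM in the control (SD, n = 4) and 2918 ± 156 with DDR1i (SD, n = 4), and it was already 2788 ± 371 with collagen (SD, n = 3), where AHNAK was lower than in the control. AHNAK2, an AHNAK relative with a transcript of 18335 bases, had a log2 fold change of 0.86 (SE 0.22) with DDR1i and 1.01 (SE 0.23) with RUNXi against collagen. In the nuclear linkers, all 5 tested, the median was 0.44 with DDR1i and 0.73 with RUNXi, and SYNE2, a nesprin with a transcript of 21822 bases, stood at 0.83 (SE 0.18) with RUNXi. Of the microtubule linkers 7 of 8 were tested. All 7 had a positive log2 fold change with DDR1i against collagen and a negative one with collagen against the control, none past the threshold. Of all genes 50.3% were positive with DDR1i, by length 45.4% at 2 to 4 kb, 67.4% at 4 to 8 kb and 79.6% at 8 kb and over. For collagen against the control these shares were 50.9%, 57.2%, 29.7% and 20.4%. Several of the 7 are long, such as MAP1B at 11790 bases, and a response apart from length was not tested.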

How the data were processed

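RNA-seq of 16 MCF10A libraries was analysed from a table of raw read counts per gene, deposited by the authors, who aligned the reads with STAR to GRCh37/hg19. The counting tool, annotation and use of strand are not given in the sources used here, so reads of overlapping genes and related copies may be shared. Samples were grouped by their titles. The 9 genes and the linker lists were chosen with earlier results of these data known. From the deposited counts, edgeR 4.0.16 (R 4.3.3, TMM scaling, its default filter on low counts, robust quasi-likelihood test, Benjamini-Hochberg adjustment over all genes tested, threshold 0.05) was fitted to 11 libraries for the inhibitors and collagen, 7 for collagen and the control and 12 for the inhibitors and the control. Collagen replicate 3 was left out as in the study's methods. Intervals are at the 95% level. Levels are CPM, counts scaled to a common library size by TMM over all 16 libraries, with a prior count of 2 for log2 values. Depth was 12184619 to 44332378 counts, and the closest replicates differed by 18.3 times the sampling noise (chi-square per degree of freedom), so none was taken for a copy of another. Lengths are those of canonical transcripts (GENCODE v44 lifted to GRCh37), matched by symbol for 21963 of 26475 rows, 1287 of them through older symbols. The length trend was removed with a natural spline of 4 degrees of freedom in each library. Named genes were the 9; of each list at most 3 with the smallest p past the threshold, or against collagen the 2 with the largest fold change, of which some are printed; the 5 most correlated with UTRN; and genes of counts of 5 or fewer. AHNAK2 and SYNE2 with RUNXi, DAG1 and DMD follow this rule, and the other called genes of the wider set were named after their values were seen, where 1 gene is not reported here. The fits were tested on simulated counts. Alternatives were DESeq2 1.42.0, its size factors, no filter, all groups in one fit, a replicate block, trend removal, inclusion of collagen replicate 3, and leaving out libraries. Figures were drawn with matplotlib.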

Additional observations from a re-analysis of the deposited data

Results flagged for a closer look

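One result stood out by the spread within a group. FLNA measured 1639.72 normalized CPM in collagen replicate 3, against 887 to 1004 in the 3 other collagen libraries, and the gap to its nearest neighbour was larger than Dixon's test at the 95% level allows for 4 samples. It was 1 of 40 groups tested, where chance gives about 2. The other linker genes were also higher in collagen replicate 3 than in the other collagen libraries, without passing that value.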

How the results depend on the processing

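Of the 9 linker genes, 7 would be called with DDR1i and 8 with RUNXi against collagen. With the length trend removed 2 and 1 would be called, with collagen replicate 3 included 0 and 0, and with both 0 and 0, the last tried after the data were seen. Leaving out 1 library at a time gave 5 to 9 with DDR1i and 2 to 8 with RUNXi. For collagen against the control the count was 0, but 7 in DESeq2 (adjusted p 0.00249 to 0.0413), 8 without a filter on low counts and 8 with all 4 groups in one fit. The cause of these differences was not tested. The other 3 comparisons gave 0 in each alternative run. A replicate block gave 7 and 8 against collagen and 0 elsewhere. The main fits did not pair the libraries by replicate number, and whether the numbers pair them was not settled. Of 24 same-numbered pairs 7 correlated over 0.1 (range -0.0925 to 0.276), and the pairs of replicate 4 correlated at 0.161 to 0.276. For 12 of 16 libraries the closest library of another group had the same number, a larger share than unrelated numbers would give. Variation shared by replicate number was therefore visible, most of all in replicate 4, and the main fits did not model it. Its source was not tested. With the block, calls over all genes rose from 334 to 537 with DDR1i and from 549 to 759 with RUNXi against collagen.

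Counts over all genes moved more. For DDR1i and RUNXi against collagen they were 334 and 549, and 833 and 1153 in DESeq2, 755 and 1046 without a filter, 162 and 204 with the length trend removed, 9 and 60 with collagen replicate 3, 9 and 63 with both, 537 and 759 with the block, and 60 to 662 and 123 to 715 leaving out 1 library. For DDR1i against RUNXi the count was 77, and 134 in DESeq2, 163 without a filter and 154 with the block. For collagen against the control it was 0, and 415, 284 and 313 in DESeq2, without a filter and with all groups. For the inhibitors against the control it was 28 and 53, and 65 and 108 in DESeq2, 41 and 81 without a filter, 17 and 35 with all groups, 116 and 162 with the block, and 12 and 21 without control replicates 2 and 3.

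The sign of a log2 fold change turned in 34 values of 0.163 or less in size, none of them called. With the length trend removed these were VCL at -0.0119 in DDR1i against RUNXi, and UTRN at -0.0459, SPTAN1 at -0.0367, VCL at -0.00519 in DDR1i against the control, and FLNA at -0.018 in RUNXi against the control. With collagen replicate 3 as well these were VCL at -0.00907 in DDR1i against RUNXi. Without control replicates 2 and 3 these were UTRN at -0.0707, SPTBN1 at -0.0436 in DDR1i against the control, and MACF1 at -0.16, SPTBN1 at -0.163, VCL at -0.019, AHNAK at -0.0481, DSP at -0.139 in RUNXi against the control. Leaving out 1 library turned 21 of them. The ranges for DDR1i against RUNXi were VCL -0.0145 to 0.0739 and FLNA -0.00415 to 0.207. The ranges for DDR1i against the control were UTRN -0.159 to 0.198 and SPTAN1 -0.0268 to 0.0871. The ranges for RUNXi against the control were SPTBN1 -0.0436 to 0.117, FLNA -0.0597 to 0.145, DSP -0.0467 to 0.137, UTRN -0.324 to 0.0295, MACF1 -0.0249 to 0.201, SPTAN1 -0.0869 to 0.0264 and TLN1 -0.112 to 0.0235.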
